A study of Mus musculus with 4 samples.

Results

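The genes described here are 10 ETS and RUNX transcription factor genes, with the partner subunit of the RUNX proteins: *Ets1*, *Ets2*, *Fli1*, *Gabpa*, *Etv4*, *Etv5*, *Elk3*, *Runx1*, *Runx2* and *Cbfb*. They were chosen by name, with earlier results of these data known, and all 10 were found among the 22463 gene symbols of the RNA-Seq files. For genes with several RefSeq transcripts, values are those of the transcript that collected most reads in total, and 6 of the 10 have 1 transcript. RNA came from immortalized *Mll3*-/-*Mll4* f/f brown preadipocytes, the precursors of brown fat cells. The cells were taken from C57BL/6J embryos at E18.5 and immortalized with SV40T. Infection with Ad-GFP left *Mll4* in place and gave *Mll3*-/- cells, and Ad-Cre was used to delete *Mll4*, which gives *Mll3*-/-*Mll4*-/- cells, so every library lacks MLL3. On day 0 the cells had been confluent for 2 days and had not received the adipogenic cocktail of insulin, T3, indomethacin, dexamethasone and IBMX, and on day 2 they had been exposed to it. Each of the 4 conditions has 1 library, and whether a culture was a pool or a clone is not given in the sources used here. Differences could therefore not be checked against replicates, and p-values are not given.

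ETS factors share a DNA-binding domain that recognizes a GGAA core, and many of them act where growth factor signals reach the genome. ETS1, ETS2 and ternary complex factors such as ELK3 are phosphorylated by ERK kinases, the PEA3 group (ETV4, ETV5) is induced by FGF and ERK signaling, and GABPA works with GABPB subunits at many housekeeping and mitochondrial promoters. RUNX proteins bind DNA through the Runt domain and need CBFB for stable binding. RUNX2 drives bone formation and RUNX1 is best known from blood, but both are also expressed in mesenchymal precursors, the cells that give rise to fat and bone.

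Sequences are shown for exons and upstream regions because transcripts of *Ets1* and *Runx1* differ by these exons and because *Runx1* has a distal and a proximal start. In the first pair capitals mark the exon, and the 10 bases on either side are intronic. The *Ets1* exon has 261 bases, lies with its flanks at chr9:32545674-32545954 (plus strand, NCBIM37/mm9), and encodes a stretch beside the ETS domain that restrains DNA binding. The *Runx1* exon has 192 bases and lies with its flanks at chr16:92644389-92644600 (minus strand, same build).
*Ets1* exon: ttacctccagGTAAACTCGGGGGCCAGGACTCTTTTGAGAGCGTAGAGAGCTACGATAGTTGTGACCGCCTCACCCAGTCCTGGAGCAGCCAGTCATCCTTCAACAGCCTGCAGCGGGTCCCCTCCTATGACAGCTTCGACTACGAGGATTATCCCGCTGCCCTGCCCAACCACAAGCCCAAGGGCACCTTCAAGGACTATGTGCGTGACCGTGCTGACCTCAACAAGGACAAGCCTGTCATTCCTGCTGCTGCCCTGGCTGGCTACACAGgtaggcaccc
*Runx1* exon: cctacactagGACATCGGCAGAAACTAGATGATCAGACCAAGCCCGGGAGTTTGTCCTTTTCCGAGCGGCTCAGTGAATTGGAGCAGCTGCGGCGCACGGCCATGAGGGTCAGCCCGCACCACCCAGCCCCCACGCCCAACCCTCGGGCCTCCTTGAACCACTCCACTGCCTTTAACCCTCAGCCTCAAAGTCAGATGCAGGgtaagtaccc

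The next set holds the 250 bases before a RefSeq start in GRCm38.p6. Of the 10 genes, 7 had an entry, with 9 windows in all, and *Ets1*, *Fli1* and *Etv4* had none. Capitals mark a match on either strand to the ETS core CGGAAG, the RUNX core TGTGGT or the CCAAT box, 3 motifs that do not overlap one another in these windows. The *Runx1* distal window is chr16:92826075-92826324 and the proximal one chr16:92697330-92697579, both on the minus strand. The *Runx2* window is chr17:44814628-44814877 on the minus strand, and the *Gabpa* window is chr16:84834874-84835123 on the plus strand.
*Runx1* distal: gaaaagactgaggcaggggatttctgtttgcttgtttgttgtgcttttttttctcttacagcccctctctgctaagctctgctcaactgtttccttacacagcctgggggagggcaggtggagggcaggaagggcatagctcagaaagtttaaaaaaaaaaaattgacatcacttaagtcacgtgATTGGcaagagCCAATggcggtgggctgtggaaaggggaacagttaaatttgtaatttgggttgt
*Runx1* proximal: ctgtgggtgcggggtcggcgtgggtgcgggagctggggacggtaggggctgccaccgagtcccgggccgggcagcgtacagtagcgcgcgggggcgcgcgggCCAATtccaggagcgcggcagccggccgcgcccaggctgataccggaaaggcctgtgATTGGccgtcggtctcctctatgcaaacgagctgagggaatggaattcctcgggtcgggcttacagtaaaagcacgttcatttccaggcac
*Runx2*: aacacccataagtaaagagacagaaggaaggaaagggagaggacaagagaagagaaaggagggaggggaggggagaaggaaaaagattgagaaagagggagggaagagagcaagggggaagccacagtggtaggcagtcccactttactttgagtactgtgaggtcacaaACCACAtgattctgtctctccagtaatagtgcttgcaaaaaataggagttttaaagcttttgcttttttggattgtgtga
*Gabpa*: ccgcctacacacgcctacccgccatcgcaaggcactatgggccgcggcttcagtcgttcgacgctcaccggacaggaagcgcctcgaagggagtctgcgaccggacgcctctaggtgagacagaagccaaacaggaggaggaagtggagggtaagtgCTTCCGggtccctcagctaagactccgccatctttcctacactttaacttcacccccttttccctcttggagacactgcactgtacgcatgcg
The ETS core stood once before *Gabpa* and in no other of the 9 windows, against 13.6% of all 32851 windows of this length. The RUNX core stood once before *Runx2*, as ACCACA, and in no other window, against 14.0% of all. Both *Runx1* windows held 2 CCAAT boxes, which 33.8% of all windows contain at least once, and the pair of *Etv5* windows held 3 and 1. The distal *Runx1* window had a GC content of 45.6% and the proximal one 67.6%, against a median of 52.4%. A match of letters is a description and not a binding site.

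The deposited counts summed to between 15831915 and 22099995 reads per library, and 3 reads on 1 kb of exon equal 0.131 to 0.174 RPKM. *Kmt2d* (*Mll4*) had 6304 and 8530 reads with Ad-GFP and 6316 and 5595 with Ad-Cre (day 0, then day 2), a count over the whole transcript that cannot show the loss of the floxed exons. *Kmt2c* (*Mll3*) kept 522, 1224, 463 and 451 reads in the same order, which likewise does not check the knockout. The summed level of 9 mesenchymal markers was 2163 and 427 RPKM with Ad-GFP and 1749 and 674 RPKM with Ad-Cre, with 7 to 9 of them above 1 RPKM. *Col1a1* made up 1246 and 65.8, and 1010 and 142 RPKM of these sums, and single markers went apart between the viruses on day 0. With Ad-Cre over Ad-GFP on that day, *Pdgfra* was at −2.92 (−3.01 to −2.83), *Dlk1* at −3.80 (−3.90 to −3.70), *Cd34* at −4.98 (−5.74 to −4.30) and *Ly6a* at −5.32 (−7.22 to −3.93), while *Pdgfrb* was at 0.45 (0.41 to 0.49) and *Col3a1* at 0.51 (0.49 to 0.53). The 8 adipocyte markers summed to 30.4 and 1999 RPKM, and to 15.7 and 490 RPKM, but *Cidea* was at 0 and *Ucp1* had at most 1 read in every library, so these brown fat markers were not detectable at this depth. No endothelial marker of 9 passed 1 RPKM (summed level 0.235 to 0.746 RPKM), *Ptprc* (CD45) was at 0 throughout, and *Coro1a* was the one haematopoietic marker of 9 above 1 RPKM, with 1.20, 0.191, 3.92 and 2.36 RPKM. Of 8 muscle markers, *Acta1* had 453, 12, 1356 and 88 reads and *Des* 19, 5, 0 and 49, the last equal to 1.26 RPKM, while *Myog*, *Pax7* and *Myh3* were at 0. The median log2 ratio of the 11541 symbols above 1 RPKM with Ad-GFP on either day was 0.15 for day 2 over day 0 with Ad-GFP, −0.01 with Ad-Cre, and −0.02 and −0.16 for Ad-Cre over Ad-GFP on day 0 and day 2. With edgeR's TMM factors these medians were 0.05, 0.03, 0.02 and 0.02.

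Most of the 10 genes were lower on day 2 than on day 0, with either virus. With Ad-GFP, 7 of them were over 2.5-fold lower (*Ets1*, *Fli1*, *Etv4*, *Etv5*, *Elk3*, *Runx1*, *Runx2*), against 12.7% of expressed symbols, and none was over 2.5-fold higher, against 8.38%. With Ad-Cre, 6 were past this cutoff, the same ones without *Runx2*, against 10.0%, and none was higher, against 8.68%. The median log2 ratio of the 10 was −2.13 with Ad-GFP and −1.63 with Ad-Cre. Since the 10 were chosen with earlier results of these data known, these counts are a description and not a test against the shares. *Ets2*, *Gabpa* and *Cbfb* stayed within 2.5-fold in both. All 10 were above 1 RPKM on day 0, but 7 with Ad-GFP and 6 with Ad-Cre on day 2. *Fli1*, *Etv4* and *Etv5* counted as expressed through day 0 alone, so that a lower day 2 value was partly set by that filter. In bulk RNA, fewer cells that express a gene and less RNA per cell cannot be told apart. The mesenchymal and adipocyte marker sums moved over the same days, and their part in these differences was not tested.

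**Figure D1:**
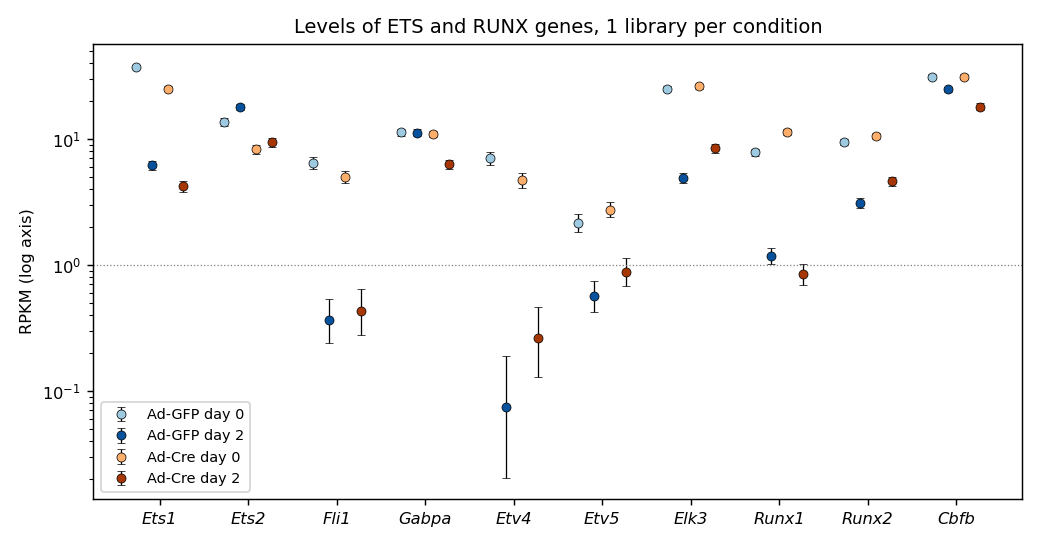
RPKM of the 10 genes (log axis) in the 4 libraries, 1 point per library, with exact Poisson 95% intervals that cover counting error only and a dotted line at 1 RPKM. On day 2 *Fli1*, *Etv4* and *Etv5* sit below 1 RPKM with either virus, while *Cbfb*, *Ets2* and *Gabpa* stay between 6.31 and 31.2 RPKM.

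*Ets1*, a factor of growth factor signaling and invasive cell states, was the highest of the 10 in the Ad-GFP library of day 0. It had 37.5 RPKM (3264 reads) with Ad-GFP and 25.1 RPKM (2480 reads) with Ad-Cre on day 0, and 6.16 RPKM (716 reads) and 4.22 RPKM (385 reads) on day 2. Both levels of day 2 lay far below both of day 0. The log2 ratio of day 2 to day 0 was −2.61 (−2.73 to −2.49) with Ad-GFP and −2.57 (−2.73 to −2.42) with Ad-Cre, or 6.09-fold and 5.95-fold lower. Values in brackets after a log2 ratio, here and elsewhere, are exact (Clopper-Pearson) 95% intervals of the read ratio, which reflect counting error and describe single libraries, not conditions. The ratio of these ratios, Ad-Cre over Ad-GFP, was 0.03 (−0.16 to 0.23) on the log2 scale, with an exact conditional interval, but 0.68 after each ratio was set against the trend of all expressed symbols with transcript length and GC content. The gene (NM_011808; chromosome 9, plus strand, 32443806 to 32565405) is placed by GENCODE vM1 on NCBIM37/mm9, as are the others.

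A second *Ets1* transcript, NM_001038642, lacks the 261-base exon printed above, and the difference of the read counts of the 2 transcripts gives the reads on that exon. There were 262 with Ad-GFP and 186 with Ad-Cre on day 0, and 45 and 12 on day 2. The read density of the exon relative to the other exons was 1.60 (1.41 to 1.82) with Ad-GFP on day 0 and 1.23 (0.891 to 1.67) on day 2, and 1.49 (1.28 to 1.73) with Ad-Cre on day 0 and 0.592 (0.303 to 1.05) on day 2. The last interval did not overlap those of day 0 but overlapped that of Ad-GFP on day 2, and rests on 12 reads. Read density varies along a transcript, so these values are not shares of an isoform.

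*Fli1*, the neighbour of *Ets1* and a regulator of endothelial and blood cells, was low after induction. It had 6.46 RPKM (343 reads) with Ad-GFP and 5.01 RPKM (302 reads) with Ad-Cre on day 0, and 0.366 RPKM (26 reads) and 0.431 RPKM (24 reads) on day 2. Day 2 was lower with either virus, at log2 ratios of −4.14 (−4.78 to −3.56) and −3.54 (−4.20 to −2.94). Its gene (NM_008026; chromosome 9, minus strand, 32229793 to 32348974) lies 95 kb from *Ets1* with no annotated protein-coding gene between them.

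*Ets2*, the closest relative of *Ets1*, did not share its pattern. It had 13.7 RPKM (835 reads) with Ad-GFP and 8.29 RPKM (575 reads) with Ad-Cre on day 0, and 17.9 RPKM (1462 reads) and 9.40 RPKM (603 reads) on day 2. Both Ad-Cre levels were below both Ad-GFP levels. Day 2 over day 0 was 0.39 (0.27 to 0.51) with Ad-GFP and 0.18 (0.02 to 0.35) with Ad-Cre, which made *Ets2* the one gene of the 10 above 0 in both. The gene is NM_011809 (chromosome 16, plus strand, 95923682 to 95942658).

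*Gabpa*, the ETS subunit of GABP, had 11.3 RPKM (970 reads) with Ad-GFP and 10.9 RPKM (1065 reads) with Ad-Cre on day 0, and 11.2 RPKM (1289 reads) and 6.31 RPKM (567 reads) on day 2. The Ad-Cre library of day 2 was the low one and the other 3 were close to each other. Day 2 over day 0 was −0.01 (−0.13 to 0.11) with Ad-GFP and −0.80 (−0.95 to −0.65) with Ad-Cre, and −0.31 and −0.18 after correction for length and GC content. Without this correction its partner *Gabpb1* was at −0.00 (−0.19 to 0.18) and −0.87 (−1.10 to −0.65), and *Gabpb2* at 0.28 (0.19 to 0.36) and −0.47 (−0.58 to −0.36). Expressed symbols of like exon length (20 bins) had a median Ad-Cre ratio of −0.00 for *Gabpb1* and −0.67 for *Gabpb2*. The *Gabpb2* value with Ad-Cre was thus not below that of transcripts of its length. The gene (NM_008065; chromosome 16, plus strand, 84835170 to 84864024) overlaps *Atp5j* on the other strand, and since strand is not stated for the counting, reads of shared stretches cannot be told apart. Of its windows of 50 bases, 11.7% matched elsewhere in the genome with at most 2 mismatches.

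The PEA3 factors *Etv4* and *Etv5*, targets and effectors of FGF and ERK signaling, were both lower on day 2. *Etv4* had 7.04 RPKM (283 reads) with Ad-GFP and 4.72 RPKM (215 reads) with Ad-Cre on day 0, and 0.0745 RPKM (4 reads) and 0.261 RPKM (11 reads) on day 2. Its ratios of day 2 to day 0 were −6.56 (−8.45 to −5.19) with Ad-GFP and −4.17 (−5.20 to −3.31) with Ad-Cre, and −2.90 and −2.18 with 1 RPKM added to each value. *Etv5* had 2.16 RPKM (142 reads) with Ad-GFP and 2.75 RPKM (205 reads) with Ad-Cre on day 0, and 0.569 RPKM (50 reads) and 0.885 RPKM (61 reads) on day 2, with ratios of −1.92 (−2.42 to −1.45) and −1.63 (−2.07 to −1.22), which became −1.01 and −0.99, within 2.5-fold, after the same addition. *Etv5* is the least certain of the 10: 72.9% of its windows of 50 bases (272 of 373) matched a second place in the genome, 267 of them on chromosome 10, and how such reads were counted is not given in the sources used here. *Etv1*, the remaining PEA3 gene, had 1 to 10 reads. The genes are NM_008815 (chromosome 11, minus strand, 101631056 to 101646685) and NM_023794 (chromosome 16, minus strand, 22381382 to 22439792).

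*Elk3*, a ternary complex factor that binds with SRF and can repress its targets, had 25.0 RPKM (1819 reads) with Ad-GFP and 26.1 RPKM (2154 reads) with Ad-Cre on day 0, and 4.92 RPKM (479 reads) and 8.40 RPKM (641 reads) on day 2. The levels of day 0 were close to each other and both levels of day 2 were lower, less so with Ad-Cre. Day 2 over day 0 was −2.34 (−2.49 to −2.20) with Ad-GFP and −1.63 (−1.76 to −1.51) with Ad-Cre, and the ratio of these ratios was 0.71 (0.51 to 0.91). The gene (NM_013508; chromosome 10, minus strand, 92710159 to 92773880) overlaps *Cdk17* on the other strand.

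*Runx1* had 7.84 RPKM (960 reads) with Ad-GFP and 11.3 RPKM (1568 reads) with Ad-Cre on day 0, and 1.18 RPKM (193 reads) and 0.849 RPKM (109 reads) on day 2. The highest and the lowest of these levels were both found with Ad-Cre. Day 2 over day 0 was −2.73 (−2.96 to −2.51) with Ad-GFP and −3.73 (−4.03 to −3.45) with Ad-Cre. The ratio of these ratios was −1.0 (−1.37 to −0.63), and −0.06 after correction for length and GC content. The gene is NM_001111023 (chromosome 16, minus strand, 92601712 to 92826311).

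Of *Runx1* the files list 4 transcripts, from the distal and the proximal start whose upstream bases are printed above, each with and without the 192-base exon. Proximal transcripts carry 1591 bases of their own and distal ones 249. The proximal transcript had 265 and 436 more reads than the distal one on day 0 with Ad-GFP and Ad-Cre, and 43 and 25 more on day 2. Shared exons cancel in this difference, so at least that many reads lay on the proximal start region, and reads of the distal start cannot be counted from it. Across the 4 transcripts day 2 over day 0 was between −2.73 and −2.59 with Ad-GFP and between −3.73 and −3.62 with Ad-Cre. The 192-base exon held 46 and 55 reads on day 0 and 6 and 3 on day 2. Its density relative to the rest of the proximal transcript was 1.82 (1.32 to 2.44) and 1.31 (0.983 to 1.72) on day 0, and 1.16 (0.420 to 2.57) and 1.02 (0.207 to 3.07) on day 2, intervals that all overlap.

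*Runx2*, the osteoblast factor, had 9.46 RPKM (1051 reads) with Ad-GFP and 10.5 RPKM (1321 reads) with Ad-Cre on day 0, and 3.12 RPKM (463 reads) and 4.60 RPKM (536 reads) on day 2. Both levels of day 2 were below both of day 0. Day 2 over day 0 was −1.60 (−1.76 to −1.44) with Ad-GFP and −1.19 (−1.34 to −1.04) with Ad-Cre, and −1.71 and −1.31 in the transcript with the next most reads. The RPKM of *Runx2* divided by that of *Runx1* was 1.21 and 2.64 on the 2 days with Ad-GFP, and 0.928 and 5.42 with Ad-Cre. *Runx2* was thus the higher of the pair in every library but that of Ad-Cre on day 0. *Runx3*, with 73 to 240 reads, was at −1.21 (−1.64 to −0.78) and −1.25 (−1.62 to −0.90). With Ad-GFP it had 1.88 RPKM on day 0 and 0.816 RPKM on day 2. It thus counted as expressed through day 0 alone, and a lower day 2 value was partly set by that filter. The *Runx2* gene (NM_001145920; chromosome 17, minus strand, 44632936 to 44951746) overlaps *Supt3* on the other strand.

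*Cbfb*, which encodes the subunit that RUNX proteins bind, had 31.1 RPKM (1557 reads) with Ad-GFP and 31.2 RPKM (1776 reads) with Ad-Cre on day 0, and 24.7 RPKM (1652 reads) and 18.0 RPKM (948 reads) on day 2. It was the highest of the 10 in every library but that of Ad-GFP on day 0. Day 2 over day 0 was −0.33 (−0.43 to −0.23) with Ad-GFP and −0.79 (−0.91 to −0.68) with Ad-Cre. The level of *Cbfb* relative to the summed level of the 3 *Runx* genes was 1.62 and 4.83 on day 0 and day 2 with Ad-GFP, and 1.25 and 2.66 with Ad-Cre. A 96-base exon that separates 2 of its 4 transcripts held 42 and 58 reads with Ad-GFP and 48 and 16 with Ad-Cre. Its relative density was 0.809 (0.581 to 1.10) and 1.07 (0.811 to 1.40) with Ad-GFP. With Ad-Cre it was 0.816 (0.599 to 1.09) and 0.500 (0.284 to 0.816). These intervals all overlap, and the values are not shares of an isoform. The gene is NM_001161458 (chromosome 8, plus strand, 107694574 to 107741886).

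**Figure D2:**
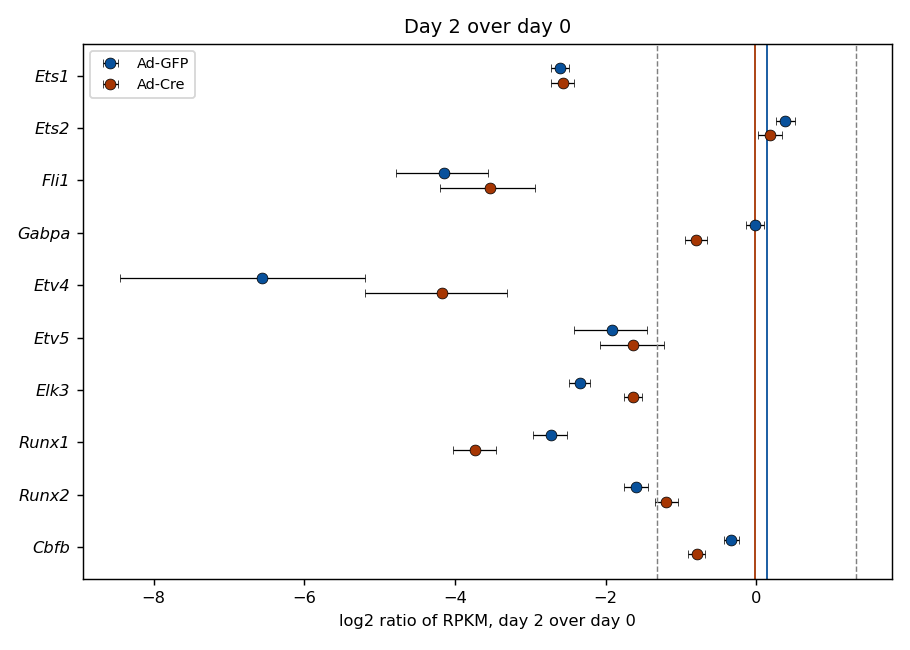
Log2 ratio of RPKM on day 2 over day 0 for the 10 genes with Ad-GFP and Ad-Cre, with exact 95% intervals of the read ratio, solid lines at the medians of expressed symbols and dashed lines at 2.5-fold. With Ad-GFP 7 points lie past the lower dashed line, and *Runx2* is the one of them that does not with Ad-Cre.

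The order of the levels differed between the days. With Ad-GFP it ran on day 0 from *Ets1* over *Cbfb*, *Elk3*, *Ets2*, *Gabpa*, *Runx2*, *Runx1*, *Etv4* and *Fli1* to *Etv5*, where the Poisson intervals of *Runx1* and *Etv4*, and of *Etv4* and *Fli1*, overlapped. On day 2 it ran from *Cbfb* over *Ets2*, *Gabpa*, *Ets1*, *Elk3*, *Runx2*, *Runx1*, *Etv5* and *Fli1* to *Etv4*, with overlap between *Etv5* and *Fli1*. With Ad-Cre the order on day 0 was *Cbfb*, *Elk3*, *Ets1*, *Runx1*, *Gabpa*, *Runx2*, *Ets2*, *Fli1*, *Etv4* and *Etv5*, and neighbours overlapped from *Elk3* to *Ets1*, from *Runx1* to *Runx2* and from *Fli1* to *Etv4*. On day 2 it was *Cbfb*, *Ets2*, *Elk3*, *Gabpa*, *Runx2*, *Ets1*, *Etv5*, *Runx1*, *Fli1* and *Etv4*, with overlap of *Ets2* and *Elk3*, *Runx2* and *Ets1*, *Etv5* and *Runx1*, and *Fli1* and *Etv4*.

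Within the ETS family the balance differed as well. The files hold 26 ETS genes, of which 15 were above 1 RPKM on day 0 and 12 on day 2, with either virus. The 7 ETS genes described here held 42.6% and 26.2% of the summed ETS RPKM on day 0 and day 2 with Ad-GFP, and 36.8% and 23.3% with Ad-Cre. *Ets1* alone held 15.5% and 3.91%, and 11.2% and 3.28%. *Elf2* ranked first among all ETS genes in the Ad-GFP library of day 2, at 32.6 RPKM, and *Erf* in the other 3.

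Ad-Cre was next set against Ad-GFP on the same day. On day 0 none of the 10 genes was over 2.5-fold higher with Ad-Cre than with Ad-GFP, against 1.27% of expressed symbols, and none was lower, against 4.12%. On day 2 *Etv4* alone was over 2.5-fold higher, against 8.16%, and none was lower, against 10.1%. The *Etv4* ratio of 1.81 (0.05 to 3.92) rests on 11 and 4 reads, and was 0.23 with 1 RPKM added to each value. These ratios come from the same 4 libraries as those between the days.

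On day 0 *Ets1* was lower with Ad-Cre at −0.58 (−0.65 to −0.50), *Ets2* at −0.72 (−0.88 to −0.57), *Etv4* at −0.58 (−0.84 to −0.32) and *Fli1* at −0.37 (−0.59 to −0.14). *Runx1* was higher at 0.53 (0.41 to 0.64), *Etv5* at 0.35 (0.03 to 0.67) and *Runx2* at 0.15 (0.03 to 0.27). The counting intervals of *Gabpa*, *Elk3* and *Cbfb* included 0, at −0.05 (−0.17 to 0.08), 0.06 (−0.03 to 0.15) and 0.01 (−0.09 to 0.11), and *Cbfb* was below 0 at −0.05 after correction for length and GC content. The mesenchymal markers *Pdgfra*, *Dlk1*, *Cd34* and *Ly6a* were over 2.5-fold lower with Ad-Cre on the same day, and their part in these differences was not tested.

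On day 2 *Elk3* was higher with Ad-Cre at 0.77 (0.60 to 0.94), *Runx2* at 0.56 (0.38 to 0.74) and *Etv5* at 0.64 (0.07 to 1.21), *Ets2* was lower at −0.93 (−1.07 to −0.79), and *Fli1* was at 0.23 (−0.63 to 1.09). The direction of 4 other genes depended on the correction for length and GC content. *Ets1* was at −0.54 (−0.73 to −0.36) and at 0.18 after it, *Gabpa* at −0.83 (−0.98 to −0.69) and 0.01, *Runx1* at −0.47 (−0.83 to −0.13) and 0.47, and *Cbfb* at −0.45 (−0.57 to −0.33) and 0.10. With the same correction *Elk3* was at 1.43, past 2.5-fold, *Runx2* at 1.24 and *Ets2* at −0.58. The median log2 ratio of expressed symbols on day 2 was 0.51 in the shortest of 20 length bins and −0.81 in the longest. *Runx1*, with 7120 bases of exon, is longer than 94.4% of expressed symbols, *Ets1* than 84.5% and *Gabpa* than 83.9%.

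**Figure D3:**
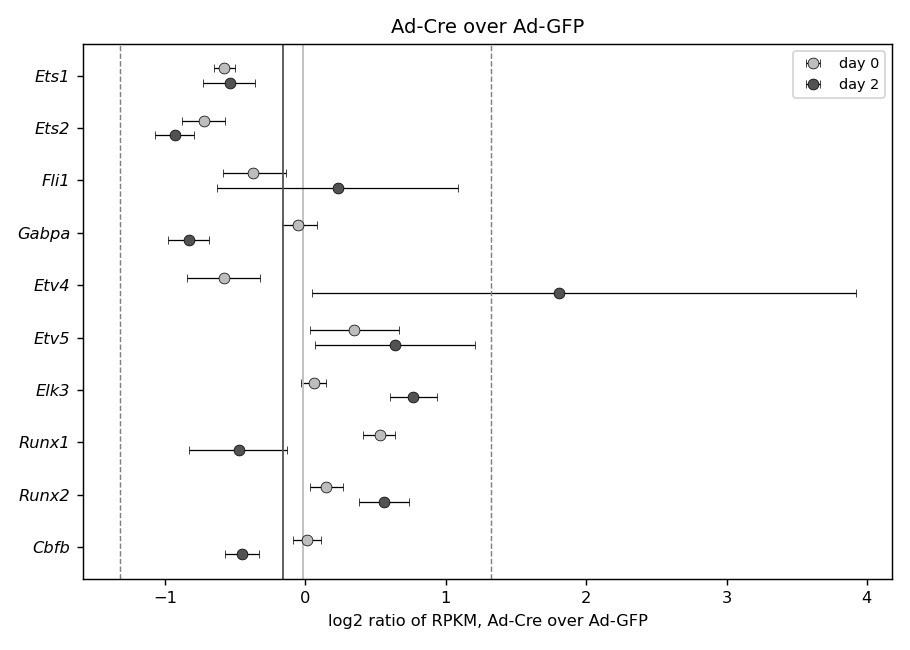
Log2 ratio of RPKM with Ad-Cre over Ad-GFP on day 0 and day 2 for the 10 genes, with exact 95% intervals of the read ratio, solid lines at the medians of expressed symbols and dashed lines at 2.5-fold. The day 2 point of *Etv4* is the one that lies past a dashed line, with an interval from 0.05 to 3.92.

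**Figure D4:**
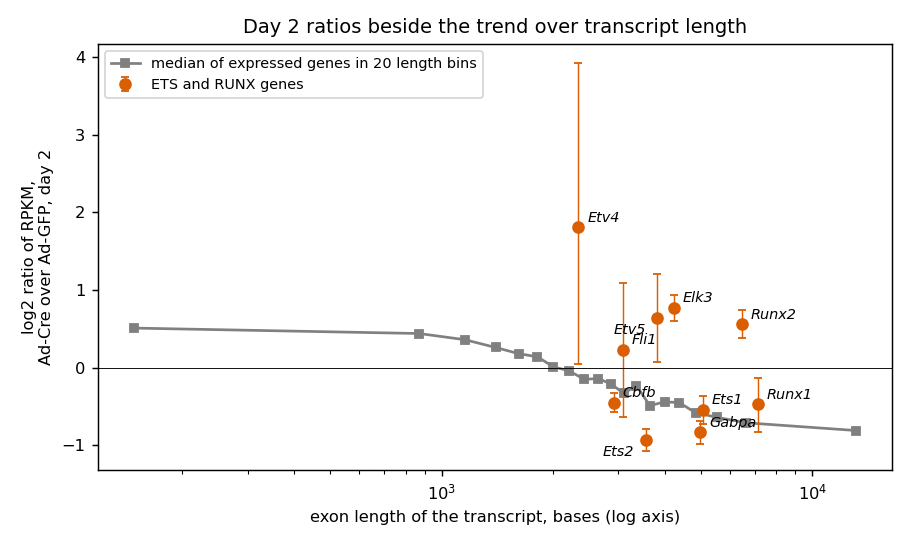
Log2 ratio of RPKM with Ad-Cre over Ad-GFP on day 2 against exon length (log axis), with squares for the median of expressed symbols in 20 length bins and points with exact 95% intervals for the 10 genes. Relative to the medians *Ets1* is at 0.04, *Gabpa* at −0.25, *Elk3* at 1.22 and *Runx2* at 1.28.

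Relatives and corepressors of these genes are described next, chosen for a ratio past the cutoff. They are the other ETS and RUNX list genes with at least 100 reads in a library and past 2.5-fold in a comparison (*Erf*, *Etv3*, *Mrtfa*, *Runx1t1*, *Tle2*, *Tle3*, *Tle5*). Counts over all expressed relatives, with the shares of expressed symbols, are given by group below. The ETS repressor *Etv3* had 5.54 and 22.4 RPKM with Ad-GFP and 4.94 and 5.61 RPKM with Ad-Cre on day 0 and day 2. It was high in the Ad-GFP library of day 2 alone, and Ad-Cre over Ad-GFP on that day was −1.99 (−2.13 to −1.86). *Erf*, an ETS repressor controlled by ERK, had 43.0 and 15.9 RPKM with Ad-GFP and 44.2 and 41.0 RPKM with Ad-Cre. It was low in that same library alone, at −1.44 (−1.54 to −1.34) for day 2 over day 0, and Ad-Cre over Ad-GFP was 1.37 (1.27 to 1.47). After correction for length and GC content these were −1.22 and 1.13, both within 2.5-fold.

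*Runx1t1*, a corepressor known as a fusion partner of *Runx1* in leukaemia, had 11.3 and 1.56 RPKM with Ad-GFP and 13.9 and 8.04 RPKM with Ad-Cre, and Ad-Cre over Ad-GFP on day 2 was 2.37 (2.15 to 2.59). The Groucho genes *Tle2* and *Tle3*, whose proteins RUNX factors can recruit to repress, went apart. *Tle2* had 39.4 and 14.0 RPKM with Ad-GFP and 27.0 and 92.9 RPKM with Ad-Cre, and its short relative *Tle5* had 459 and 197 RPKM with Ad-GFP and 290 and 704 RPKM with Ad-Cre. *Tle3* had 23.3 and 62.0 RPKM with Ad-GFP and 22.3 and 25.6 RPKM with Ad-Cre. On day 2 *Tle2* and *Tle5* were higher with Ad-Cre, at 2.73 (2.62 to 2.83) and 1.84 (1.80 to 1.88), and *Tle3* was lower, at −1.28 (−1.34 to −1.21), within the cutoff. *Mrtfa*, an SRF cofactor that competes with ternary complex factors, had 34.5 and 19.4 RPKM with Ad-GFP and 46.3 and 53.5 RPKM with Ad-Cre. The direction of these 7 genes on day 2 held with TMM factors, summed counts, a pseudocount and both trend corrections.

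**Figure D5:**
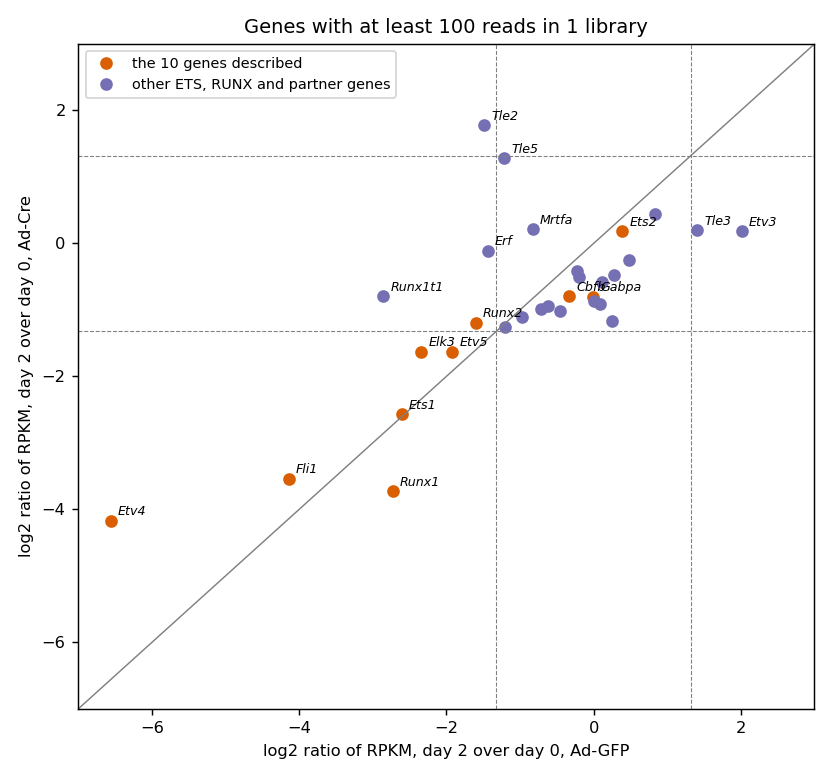
Log2 ratio of RPKM on day 2 over day 0 with Ad-GFP (x axis) and with Ad-Cre (y axis) for the 10 genes and for other ETS, RUNX and partner genes with at least 100 reads in a library, with the line of equal ratios and dashed lines at 2.5-fold. The 6 genes over 2.5-fold lower in both lie at lower left, and *Etv3* and *Tle3* lie to the right below the line. *Tle2*, *Tle5*, *Runx1t1*, *Erf* and *Mrtfa* lie above it, and *Tle2* is past the cutoff in both, in opposite directions.

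By group and without the 10 genes, 1 of 4 expressed class I and GABP genes was higher (*Etv3*) and 1 lower (*Erf*) on day 2 with Ad-GFP, and none with Ad-Cre. None of 5 ternary complex and SRF genes and none of 4 genes of the ELF, TEL and related groups passed the cutoff with either virus, with medians of −0.20 and −0.66 with Ad-GFP, and −0.91 and −0.96 with Ad-Cre. Of 8 RUNX relatives and corepressors, 1 was higher and 2 lower with Ad-GFP, and 1 was higher and none lower with Ad-Cre. Among expressed symbols 8.38% were higher and 12.7% lower with Ad-GFP (median 0.15), and 8.68% and 10.0% with Ad-Cre (median −0.01). For Ad-Cre over Ad-GFP none of these relatives passed the cutoff on day 0, against 1.27% higher and 4.12% lower among expressed symbols. On day 2, 1 of the 4 class I and GABP genes was higher and 1 lower, 1 of 5 ternary complex and SRF genes was higher, none of 4 of the ELF, TEL and related groups passed, and 3 of 8 RUNX relatives and corepressors were higher, against 8.16% higher and 10.1% lower among expressed symbols.

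ERK response genes, feedback inhibitors and immediate early genes among them, went in both directions. Of 18 expressed, 3 were higher and 6 lower on day 2 with Ad-GFP (median −0.91), and 1 was higher and 11 lower with Ad-Cre (median −1.45). Among all expressed symbols 8.38% were higher and 12.7% lower with Ad-GFP (median 0.15), and 8.68% and 10.0% with Ad-Cre (median −0.01). The gene higher with Ad-Cre, *Phlda1* at 1.37 (1.22 to 1.52) and chosen after its values were seen, was no longer past the cutoff with the pseudocount or either trend correction. The cyclin gene *Ccnd1* was at −4.81 (−5.22 to −4.44) with Ad-GFP and −1.78 (−2.23 to −1.36) with Ad-Cre, and Ad-Cre over Ad-GFP was −2.71 (−2.92 to −2.50) before induction. Its Ad-Cre value came within 2.5-fold, at −1.08, with the pseudocount. *Egr3* was at −3.79 (−5.29 to −2.58) and −3.17 (−4.43 to −2.12), the phosphatase gene *Dusp5* at −2.84 (−3.71 to −2.06) and −3.37 (−4.15 to −2.67), and *Ier3* at −2.74 (−3.25 to −2.26) and −2.05 (−2.39 to −1.72). *Ccnd1*, *Egr3*, *Dusp5*, *Dusp6*, *Spred3* and *Fos* counted as expressed through day 0 alone, so that a lower day 2 value was partly set by that filter. With Ad-Cre over Ad-GFP on day 2, 2 of the 18 were higher and 2 lower (median 0.31). Among all expressed symbols 8.16% were higher and 10.1% lower (median −0.16). The 2 lower were genes of ERK inhibitors, *Dusp4* at −2.29 (−2.68 to −1.93) and *Spry4* at −2.21 (−2.44 to −1.99). The 2 higher were *Ier2* at 1.41 (1.30 to 1.52) and *Ier3* at 1.45 (0.91 to 2.01). The *Ier3* value was 1.02, within 2.5-fold, after correction for length and GC content.

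Protease and invasion genes with known ETS sites were mostly lower on day 2. Of 10 expressed, 7 were lower and 1 higher with Ad-GFP (median −2.91), and 4 were lower and none higher with Ad-Cre (median −0.91). Among all expressed symbols 12.7% were lower and 8.38% higher with Ad-GFP (median 0.15), and 10.0% and 8.68% with Ad-Cre (median −0.01). *Plau*, *Hgf* and *Itgb3* counted as expressed through day 0 alone, so that a lower day 2 value was partly set by that filter. The urokinase gene *Plau* was at −4.47 (−4.91 to −4.06) with Ad-GFP and −2.70 (−2.96 to −2.44) with Ad-Cre, and its receptor gene *Plaur* at −3.16 (−3.73 to −2.64) and −4.29 (−4.99 to −3.65). The growth factor gene *Hgf* was at −3.65 (−4.49 to −2.90) and −1.11 (−2.78 to 0.36), and already on day 0 Ad-Cre over Ad-GFP was −3.60 (−4.51 to −2.81), on 14 and 150 reads. With Ad-Cre over Ad-GFP on day 2, 3 of the 10 were higher and 2 lower (median −0.10). Among all expressed symbols 8.16% were higher and 10.1% lower (median −0.16). The HGF receptor gene *Met* was lower at −2.52 (−2.78 to −2.28), as it was on day 0 at −2.00 (−2.32 to −1.69) (−1.24 with the pseudocount, within 2.5-fold). The protease inhibitor gene *Timp1* was higher on day 2 at 2.07 (1.84 to 2.31).

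Of 6 expressed osteoblast genes with known RUNX2 sites, 3 were lower and 2 higher on day 2 with Ad-GFP (median −1.99), and 4 were lower and 1 higher with Ad-Cre (median −1.70). The shares of all expressed symbols were 12.7% lower and 8.38% higher with Ad-GFP (median 0.15), and 10.0% and 8.68% with Ad-Cre (median −0.01). *Spp1* counted as expressed through day 0 alone, so that its lower day 2 value was partly set by that filter. The osteopontin gene *Spp1* was at −6.76 (−7.77 to −5.92) and −5.10 (−6.33 to −4.10), and the collagen genes *Col1a1* and *Col1a2* at −4.24 (−4.28 to −4.21) and −3.47 (−3.53 to −3.41) with Ad-GFP. The alkaline phosphatase gene *Alpl* was higher, with 9 and 110 reads on the 2 days with Ad-GFP and 1 and 43 with Ad-Cre, at 3.19 (2.22 to 4.36) and 5.54 (2.98 to 10.88). With 1 RPKM added to each value these were 1.26 and 0.93, within 2.5-fold, and *Alpl* counted as expressed only through the Ad-GFP library of day 2, at 1.90 RPKM, so that a higher day 2 value was partly set by that filter. With Ad-Cre over Ad-GFP on day 2, 1 of the 6 was higher and 1 lower (median −0.56). Among all expressed symbols 8.16% were higher and 10.1% lower (median −0.16). *Col1a2* was higher at 2.29 (2.23 to 2.35) and *Tnfsf11*, the RANKL gene, lower at −1.63 (−2.46 to −0.87), on 18 and 71 reads. The *Tnfsf11* value was −1.25 after correction for length and GC content and −0.72 with the pseudocount, both within 2.5-fold. *Tnfsf11* also counted as expressed only through the Ad-GFP library of day 2, at 1.38 RPKM. Its higher value on day 2 with Ad-GFP, and its lower one with Ad-Cre on that day, were partly set by that filter.

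Of 12 mitochondrial genes with known GABP sites, all expressed, 1 was over 2.5-fold higher on day 2 with Ad-GFP (*Tfb1m*), 1 with Ad-Cre (*Cox4i1*) and none was lower, with medians of 0.91 with Ad-GFP and 0.67 with Ad-Cre. The shares of all expressed symbols were 8.38% higher and 12.7% lower with Ad-GFP (median 0.15), and 8.68% and 10.0% with Ad-Cre (median −0.01). With Ad-GFP the mitochondrial methyltransferase gene *Tfb1m* was at 1.60 (1.13 to 2.09), the cytochrome oxidase genes *Cox5b* and *Cox4i1* at 1.19 (0.88 to 1.5) and 1.12 (1.05 to 1.20), and the mitochondrial RNA polymerase gene *Polrmt* at 1.05 (0.91 to 1.19). The *Tfb1m* value was 1.24, within 2.5-fold, with the pseudocount. With Ad-Cre *Cox4i1* was at 1.44 (1.37 to 1.52) and *Cox5b* at 0.90 (0.59 to 1.21), but at 0.31 and −0.24 after correction for length and GC content, which left no gene of the list past the cutoff. Both have short transcripts, and the median Ad-Cre ratio of expressed symbols in the shortest of the 20 length bins was 0.85. With Ad-Cre over Ad-GFP on day 2, none of the 12 was higher and 1 was lower (median −0.25). Among all expressed symbols 8.16% were higher and 10.1% lower (median −0.16). The lower gene was *Tfb2m* at −1.45 (−1.96 to −0.97), or −0.96 and within 2.5-fold after correction for length and GC content. *Tfb1m* was at −1.15 (−1.58 to −0.74).

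The genes whose pattern was most like that of each of the 7 lower genes were found by the Euclidean distance of log2(RPKM + 0.1), centred over the 4 libraries, among 11630 symbols. They were *Itpr3*, *Slc38a4* and *Ripor2* for *Ets1* (distances 0.08 to 0.21), *Grb14*, *Ccl7* and *Fgd3* for *Fli1* (distances 0.22 to 0.32) and *Ccl2*, *Adm* and *Kcnab1* for *Etv4* (distances 0.32 to 0.65). They were *Ywhah*, *Rassf7* and *Ncs1* for *Etv5* (distances 0.10 to 0.12) and *Rab31*, *Nipsnap1* and *Mageh1* for *Elk3* (distances 0.07 to 0.15). They were *Serpinb9*, *Cxcl10* and *Cbr2* for *Runx1* (distances 0.21 to 0.29) and *Plxnb2*, *Parva* and *Cemip2* for *Runx2* (distances 0.03 to 0.11). Some of these matches rest on few reads. On day 2, with Ad-GFP and Ad-Cre, *Grb14* had 4 and 5 reads, *Ccl7* 3 and 3 and *Fgd3* 4 and 4. *Ccl2* had 5 and 11 and *Cxcl10* 7 and 4. At such levels the added 0.1 RPKM weighs on the distance. Among the 10 genes the closest pairs were *Etv5* and *Runx2* (0.30), *Gabpa* and *Cbfb* (0.31), *Etv5* and *Elk3* (0.41).

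Genes that neighbour these 10 in the genome are described last. Next to or overlapping one of the 10 stood 13 other protein-coding genes that were above 1 RPKM in a library. On day 2, 2 of them were over 2.5-fold lower with either virus, against 12.7% of expressed symbols with Ad-GFP and 10.0% with Ad-Cre. The median log2 ratio over all 13 was 0.16 with Ad-GFP and −0.06 with Ad-Cre, against 0.15 and −0.01 for expressed symbols. *Meox1*, 92 kb from *Etv4*, had 192 and 1 reads on the 2 days with Ad-GFP and 47 and 4 with Ad-Cre, at −8.00 (−13.31 to −5.51) and −3.44 (−5.38 to −1.99). *Jam2*, 9 kb from *Gabpa*, had 95 and 12 reads and 54 and 9 reads, at −3.40 (−4.41 to −2.53) and −2.47 (−3.68 to −1.44). *Meox1* and *Jam2* were above 1 RPKM on day 0 alone, so that a lower day 2 value was partly set by that filter. *Dhx8*, 2 kb from *Etv4* on its other side, was at 0.16 (0.02 to 0.31) and −0.06 (−0.22 to 0.10).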

How the data were processed

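RNA-Seq was analysed from 4 libraries, 1 for each condition. The authors sequenced reads of 50 bases, used the Illumina Analysis Pipeline with alignment to mm9, and counted those that fell on RefSeq exons. The authors deposited a raw read count for each of 29082 transcripts, and an RPKM, the count divided by exon length and mapped reads. How reads with several matches were treated, and strand, are not given in the sources used here. From the deposited values, exon lengths and mapped reads were recovered (100% of lengths came out whole within 0.001). Symbols came from a RefSeq table of GRCm38.p6, used for names only (97.8% matched), coordinates and exons from GENCODE vM1, and promoter sequences from RefSeq.

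The design provides no residual spread, so no edgeR test was run. Ratios of RPKM were formed without a pseudocount, with exact Clopper-Pearson 95% intervals of the reads (scipy 1.17.1). A cutoff of 2.5-fold was used, and the background was 1 transcript per symbol above 1 RPKM in Ad-GFP cells on either day. TMM factors came from edgeR 4.0.16. Windows of 50 bases every 10 bases were matched to NCBIM37 with blastn 2.17.0. The ratio computation was tested on simulated data. The 10 genes, the gene lists and the rule for named genes were chosen with earlier results of these data known. The rule names the 10 genes, other listed ETS and RUNX genes with at least 100 reads past 2.5-fold, up to 4 genes a list with the largest day 2 over day 0 ratio and up to 2 with the largest Ad-Cre over Ad-GFP ratio among those with at least 50 reads, the 3 most similar genes (at least 100 reads in all), expressed neighbours and markers. *Gabpb1*, *Gabpb2*, *Elf2*, *Etv1*, *Runx3*, *Dusp6*, *Spred3*, *Fos*, *Ier2* and *Itgb3*, and which neighbours and markers to print, were chosen after their values were seen. A gene that this rule names is not reported here. Alternatives were TMM, summed counts, the trend over exon length in 20 bins, a pseudocount of 1 RPKM, a minimum of 20 reads, an RPKM of 0.5 or no filter, cutoffs of 2-fold and 4-fold, the interval bound and the transcript with the next most reads. The trend over length and GC content (5 rounds, GC matched for 85.1% of expressed symbols and for all 10 genes) was chosen after seeing the data.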

Additional observations from a re-analysis of the deposited data

Results flagged for a closer look

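Some genes had log2 ratios of opposite direction in the 2 arms of a contrast, with both counting intervals excluding 0. With 1 library per condition these differences were not tested. For Ad-Cre over Ad-GFP on day 0 and day 2, *Etv4* was at −0.58 and 1.81 (a difference of 2.39), on 11 and 4 reads on day 2. *Runx1* was at 0.53 and −0.47 (a difference of −1.0), and its day 2 value was 0.47 with the length and GC trend. In the same contrast *Tle2* was at −0.55 and 2.73 (a difference of 3.27), *Tle5* at −0.66 and 1.84 (a difference of 2.5) and *Spry4* at 1.02 and −2.21 (a difference of −3.24). *Timp1* was at −0.26 and 2.07 (a difference of 2.33), *Col1a1* at −0.30 and 1.11 (a difference of 1.41) and *Tnfsf11* at 1.09 and −1.63 (a difference of −2.72). *Tnfsf11* counted as expressed through the Ad-GFP library of day 2 alone. *Cox4i1* was at −0.12 and 0.20 (a difference of 0.32) and *Polrmt* at 0.31 and −0.33 (a difference of −0.64), and over the alternative scalings the day 2 value ran from −0.69 to 0.38 for *Cox4i1* and from −0.64 to 0.16 for *Polrmt*.

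For day 2 over day 0 with Ad-GFP and with Ad-Cre, *Tle2* was at −1.49 and 1.78 (a difference of 3.27), *Tle5* at −1.22 and 1.28 (a difference of 2.5) and *Mrtfa* at −0.83 and 0.21 (a difference of 1.04). *Dusp4* was at 1.59 and −0.50 (a difference of −2.10) and *Spry4* at 1.83 and −1.41 (a difference of −3.24).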

How the results depend on the processing

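The counts of genes over 2.5-fold lower on day 2 than on day 0 moved by at most 1.5 times under the alternatives run, with Ad-GFP and with Ad-Cre. The 1 gene over 2.5-fold higher with Ad-Cre on day 2, *Etv4*, became 0 with a pseudocount of 1 RPKM, with at least 20 reads, at 4-fold and by the interval bound, where its 4 and 11 reads are few. With the length and GC trend the count was 2, *Etv4* at 1.32 and *Elk3* at 1.43, and the cause was not tested. Of the log2 ratios of the 10 genes, 19 left their counting interval with the length and GC trend, 17 with the length trend, 13 with the pseudocount, and 6 each with TMM factors and summed counts. Of the 72 counts over gene lists, 14 moved by over 1.5 times with the pseudocount, 9 with the length and GC trend, 5 with the length trend and 2 with TMM factors. No paired analysis was possible because each group has 1 library, and for the same reason no library could be left out. Depth limits *Etv4* and *Fli1* on day 2, with at most 26 reads.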
